A study of Mus musculus with 12 samples.

Results

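The interferon regulatory factors (IRFs) were read in RNA-seq libraries of Myc-CaP, a mouse cell line established from a prostate tumour driven by Myc. The members were the rows with the symbols Irf1, Irf2, Irf3, Irf4, Irf5, Irf7, Irf8 and Irf9, which are 8 of the 55216 genes in the count table. All 12 libraries were used, in 6 groups of 2. Ctrl cells were untreated. The IFN200 and IFN2000 cells received IFNγ at 200 or 2000 pg (the labels give no volume), and the Oxali cells received oxaliplatin, a platinum drug that crosslinks DNA, at 2 μM. Combo200 and Combo2000 cells received Oxali at the same dose with IFNγ at 200 or 2000 pg. Every group was harvested at 48 h, and all groups came from this 1 line, which was derived from the FVB/NJ strain. The comparison asked which members changed with the drug, with interferon, or only when both were given.

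IRFs are transcription factors that share a DNA-binding domain and recognise the interferon-stimulated response element (ISRE). Irf1 is induced through a gamma-activated site (GAS) and activates genes of antigen presentation, whereas Irf2 can oppose Irf1 at shared elements. Irf3 and Irf7 are latent factors that kinases switch on after nucleic acid sensing. Irf9 is the DNA-binding subunit of the complex that answers type I interferon. Irf4, Irf5 and Irf8 are best known from immune cells.

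The promoters of the members are shown for the elements that could be read in them. Windows of 300 bases, from 250 before to 50 after each RefSeq start (build GRCm38.p6), were searched on both strands for the letters TTCNNNGAA (GAS), for GAAA repeated after a gap of 2 bases (ISRE) and for the NF-κB motif. Of 32851 promoter windows, 8.3% held the GAS letters, 3.44% the ISRE letters and 8.46% the NF-κB motif. A window each of Irf1, Irf2 and Irf8 held matches. Irf1, Irf8 and Irf9 each had a further window, at another start, and these held no match. The Irf1 window with matches, chr11:53769764-53770063 on the plus strand, is given whole because Irf1 reached the highest level of all members. The capitals mark the GAS match at -90 and the NF-κB motif match at -13, counted in bases from the start.
Irf1 promoter: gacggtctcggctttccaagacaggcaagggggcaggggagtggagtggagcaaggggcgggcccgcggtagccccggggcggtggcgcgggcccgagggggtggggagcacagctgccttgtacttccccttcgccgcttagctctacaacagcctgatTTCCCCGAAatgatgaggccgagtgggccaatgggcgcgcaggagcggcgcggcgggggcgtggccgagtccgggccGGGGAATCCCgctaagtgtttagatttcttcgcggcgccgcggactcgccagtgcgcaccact

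For Irf2 and Irf8 the matches are shown with a few bases on each side, all on the plus strand of chromosome 8. The matches in Irf2 began at -241, -224 and -17 bases from the start, in the order given, and those in Irf8 at -171 and -153.
Irf2 ISRE, chr8:46739504-46739513: ggggaagtGAAAATGAAAttgacttt
Irf2 GAS, chr8:46739521-46739529: attgacttTTCCGAGAAatgatgaa
Irf2 NF-κB motif, chr8:46739728-46739737: ggggtgggGGGGATTTCCagcctcgg
Irf8 GAS, chr8:120736187-120736195: aaagtgatTTCTCGGAAagagagcg
Irf8 GAS, chr8:120736205-120736213: gagagcgcTTCAGAGAAggcggatt
The windows of Irf3, Irf4, Irf5, Irf7 and Irf9 did not hold these letters, which says nothing of sites elsewhere. The matches are descriptions of sequence, and binding was not read here.

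Some facts of the series bear on all values. Groups were taken from the sample titles, since for the 6 libraries of single treatments a further label, the agent, names a different single treatment. Under the agent labels the groups called IFN200, IFN2000 and Oxali here would be named Oxali, IFNγ 200 pg and IFNγ 2000 pg. The mean log2 ratio to Ctrl over 10 p53 target genes, which answer DNA damage, came to 0.41 and 0.39 for the 2 Oxali titles and lay between -0.03 and 0.06 in the 4 libraries titled IFNγ alone. These means hide opposed changes. By the test given below, 5 of the 10 genes were called higher and 3 lower in Oxali, against 67.6% of all genes called either way. In IFN2000 4 were called higher and 2 lower, against 16.9%. Library totals ran from 18749975 to 25931516 counts, so that 3 counts, the limit that a count of 0 allows, equalled 0.111 to 0.167 CPM, the unit of level used here (a count over the TMM-scaled size of its library). Of the prostate epithelium markers, Foxa1, Hoxb13 and Krt8 were counted in every library, whereas Epcam was at 0 in all 12. Libraries were compared with edgeR's quasi-likelihood test, with p-values adjusted by Benjamini-Hochberg over the 13177 genes tested, and called where the adjusted p was under 0.05. The labels do not say whether libraries of a group came from separate cultures, so p-values measure only the spread between these libraries, which may be technical.

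Of the 8 members, 7 passed the filter on low counts and Irf5 did not. With Oxali alone, Irf1, Irf2, Irf7 and Irf9 rose, Irf3 fell, and Irf4 and Irf8 were not called. With IFNγ alone at 2000 pg, Irf1, Irf8 and Irf9 rose. With IFNγ alone at 200 pg, no member was called by edgeR, although 2 members, Irf1 and Irf9, had an unadjusted edgeR p under 0.05. DESeq2 called none of Irf1, Irf2, Irf3 and Irf9 there and gave no adjusted p for Irf4, Irf7 and Irf8. With either combination, Irf1, Irf2, Irf7, Irf8 and Irf9 rose and Irf3 fell. The members thus fell into 3 patterns of calls: drug and interferon for Irf1 and Irf9, drug alone for Irf2, Irf3 and Irf7, and interferon alone for Irf8. Of all genes, 13.4% were called in both Oxali and IFN2000, and 54.2% in Oxali but with neither dose of IFNγ. At the matched dose of 200 pg, Irf8 was called in Combo200 and in neither Oxali nor IFN200, 1 of 7 members against 6.28% of all genes. At 2000 pg no tested member was called in the combination and in neither of its single treatments, against 5.94% of all genes.

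These counts need the background beside them. The 5 calls of 7 with Oxali stood against 67.6% of all genes called either way (34.8% higher and 32.8% lower). The 6 of 7 in Combo200 stood against 68.7% (35.6% and 33.1%) and those in Combo2000 against 69.2% (35.7% and 33.5%). A call with the drug was therefore common among all genes. The 3 calls of 7 in IFN2000, all higher, stood against 16.9% (8.39% higher), and the 0 of 7 in IFN200 against 0.114%. The 5 calls of 7 for IFNγ added to Oxali, all higher, stood against 1.83% (1.58% higher) at 200 pg and 4.36% (3.37% higher) at 2000 pg. Over the 7 tested members the median log2 change was 0.62 in Oxali, 0.72 in IFN2000 and 2.86 in Combo2000, and over all tested genes it was 0.02, 0.00 and 0.02.

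**Figure D1:**
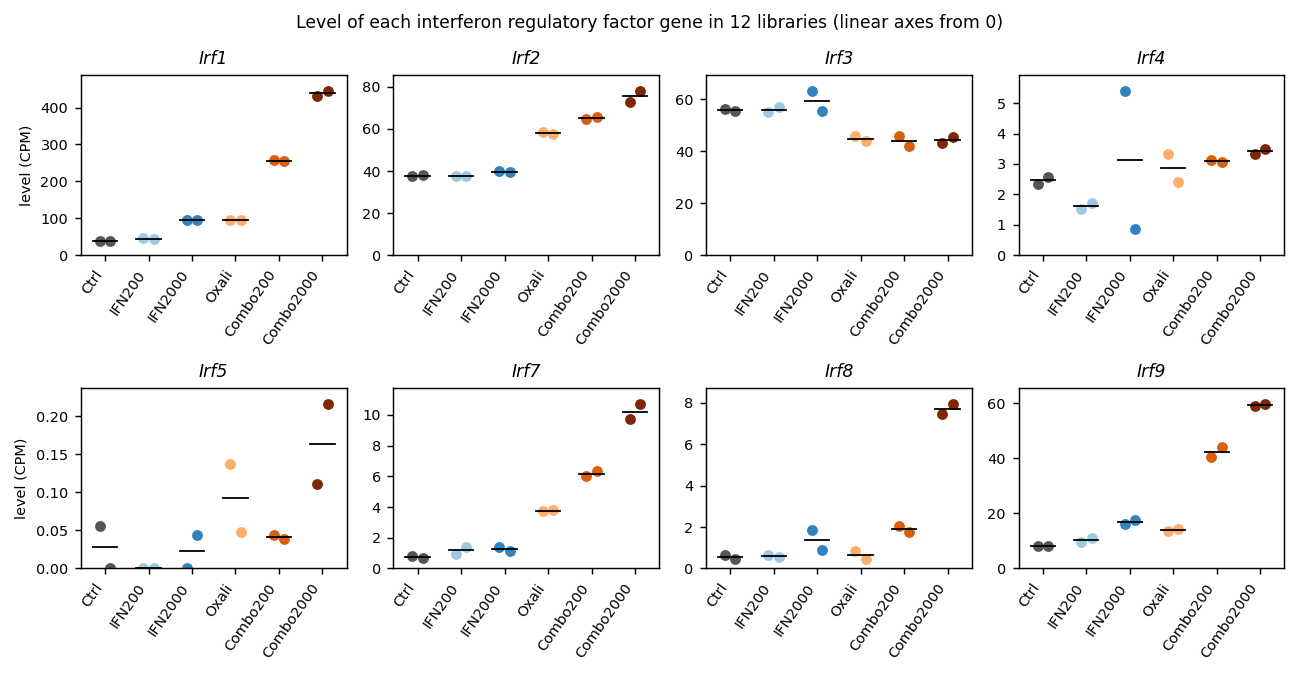
Level of each of the 8 members in CPM (vertical axes, linear and starting at 0) in the 6 groups; points are libraries and lines are means of 2 libraries. Irf1 climbed from 37 to 38.6 CPM in Ctrl to 432 to 445 in Combo2000, Irf3 lay lower in every library with Oxali, and the 2 IFN2000 libraries of Irf4 lay far apart at 0.848 and 5.4 CPM.

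Irf1, the activator of antigen presentation genes (GRCm38 chromosome 11, 53770014 to 53778374, plus strand), answered both agents. In Ctrl it stood at 38.6 and 37 CPM, in IFN200 at 47.1 and 42.9, and in IFN2000 at 94.6 and 93.9. With the drug its levels were 96.3 and 94.1 CPM (Oxali), 258 and 254 CPM (Combo200) and 432 and 445 CPM (Combo2000). The libraries of IFN2000 and of Oxali overlapped, and all other neighbouring groups were separate. The rise against Ctrl was 2.52-fold in Oxali, 2.49-fold in IFN2000, 6.77-fold in Combo200 (log2 2.76, SE 0.05, edgeR adjusted p = 4.41e-19) and 11.6-fold in Combo2000. In IFN200 the log2 change was 0.25 (SE 0.05) and was not called (edgeR adjusted p = 0.101), with both libraries above both Ctrl libraries, and without IFN200 replicate 2 it was called (0.32, edgeR adjusted p = 0.0391).

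The response of Irf1 to IFNγ differed with the drug. IFNγ at 200 pg changed Irf1 by 0.25 on the log2 scale in cells without Oxali and by 1.43 (SE 0.04) in cells with it, a difference of 1.17 (SE 0.07, edgeR adjusted p = 3.61e-09). At 2000 pg the changes were 1.32 and 2.20, and their difference was 0.88. On the linear scale, the gain over Ctrl in the Combo200 libraries was 216 and 220 CPM, whereas the gains in Oxali and IFN200 summed to 64.6 CPM. In Combo2000 it was 394 and 407 CPM against a sum of 114. The gene Gm17334, on the opposite strand, shares 135 exon bases with Irf1 and went from 0.266 to 3.28 CPM between Ctrl and Combo2000 (log2 3.60, SE 0.32, edgeR adjusted p = 4.3e-09). Whether counting used the strand is not stated, so reads of the pair may not be told apart.

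Irf2, which can oppose Irf1 at shared elements (chromosome 8, 46739732 to 46847458, plus strand), answered the drug. It stood at 37.5 and 37.9 CPM in Ctrl, 37.7 and 37.6 in IFN200 and 39.8 and 39.5 in IFN2000. With the drug its levels were 58.5 and 57.4 CPM (Oxali), 64.9 and 65.9 CPM (Combo200) and 73 and 78.1 CPM (Combo2000). The 6 libraries with Oxali all lay above the 6 without it, and within them the level was ordered by IFNγ dose. The rise was 1.54-fold in Oxali (log2 0.62, SE 0.05, edgeR adjusted p = 1.16e-09) and 2-fold in Combo2000 (log2 1.00, SE 0.05, edgeR adjusted p = 3.5e-13). IFNγ alone was not called at 2000 pg (log2 0.07, SE 0.05, edgeR adjusted p = 0.392). Added to Oxali, IFNγ at 2000 pg raised Irf2 by 0.38 (SE 0.04, edgeR adjusted p = 4.29e-06), which was larger by 0.31 (SE 0.07, edgeR adjusted p = 0.0162) than the change without the drug. At 200 pg the added rise was 0.17 (SE 0.04) with an edgeR adjusted p of 0.0494, and this call was lost when any of the libraries of Ctrl, IFN200, Oxali or Combo200 was left out (0.092 to 0.441). It was also lost with DESeq2 (0.725), with the scalings of DESeq2 (0.0691) and upper quartiles (0.103), with the length and GC correction (0.0534), with a mean of at least 50 counts (0.0564), with no filter (0.0545) and with a replicate block (0.377), and it held with only the groups compared. The interaction at 2000 pg was lost without Ctrl replicate 1 or 2, Oxali replicate 2 or Combo2000 replicate 3 (0.0573 to 0.101) and with DESeq2 (adjusted p = 0.12).

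The balance of this pair was read within each library, where scaling plays no part. The ratio of Irf1 to Irf2 counts was 1.03 and 0.976 in Ctrl, 1.25 and 1.14 in IFN200 and 2.38 and 2.38 in IFN2000. With the drug it was 1.65 and 1.64 (Oxali), 3.97 and 3.85 (Combo200) and 5.92 and 5.69 (Combo2000). No groups overlapped. The IFN2000 ratio exceeded the Oxali ratio although the Irf1 levels of these groups overlapped, and Irf2 was the higher in Oxali. Because both genes are counted over their own lengths, only the change of this ratio between libraries can be read, not its size.

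Per length, the make-up of the family shifted. In CPM per kb of exon, Irf3 ranked first in Ctrl at 16.2 ± 0.0981 (SD, n = 2), ahead of Irf1 at 9.51 ± 0.287, Irf2 at 5.1 ± 0.039 and Irf9 at 1.51 ± 0.0371. In Combo2000, Irf1 ranked first at 110 ± 2.33 CPM per kb, ahead of Irf3 at 12.9 ± 0.443, Irf9 at 11 ± 0.09 and Irf2 at 10.2 ± 0.491. Irf1 ranked first in IFN2000 and Oxali as well. Its share of the summed level per kb of the 8 members was 29.1% and 28.4% in the Ctrl libraries and 74.2% and 73.9% in the Combo2000 libraries, while the share of Irf3 was 48.7% and 49.1% against 8.58% and 8.7%.

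**Figure D2:**
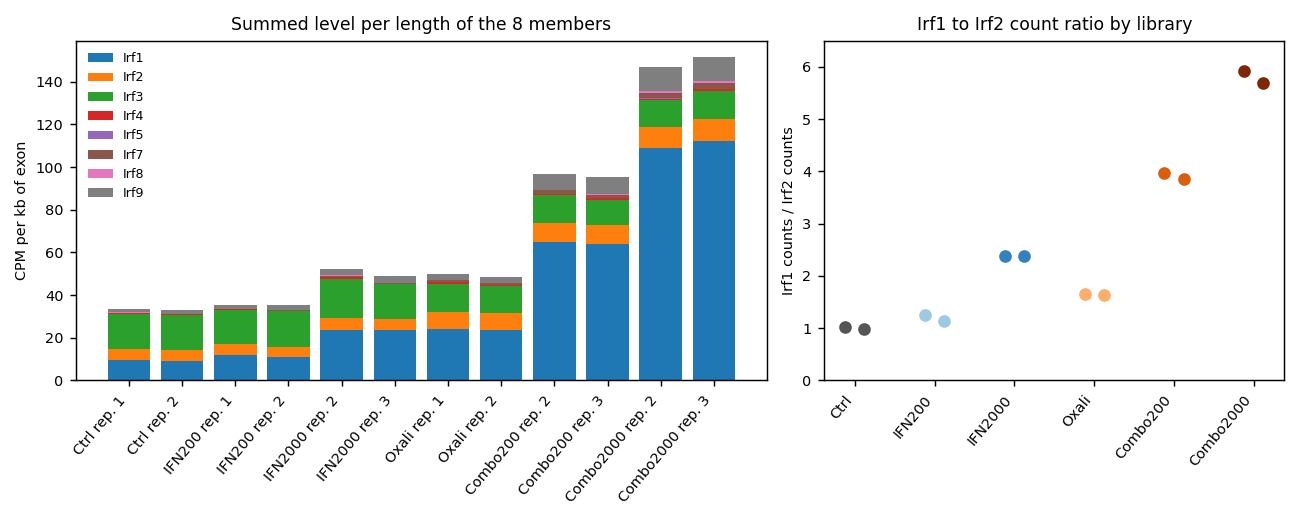
Left, stacked level of the 8 members in each library in CPM per kb of exon; right, ratio of Irf1 to Irf2 counts, with 1 point per library and 6 groups. The stack grew from 33.4 and 32.8 in Ctrl to 146 and 152 in Combo2000, mostly through Irf1, and the ratio from 1.03 and 0.976 to 5.92 and 5.69.

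Irf3, the latent factor downstream of nucleic acid sensors (chromosome 7, 44997648 to 45002848, plus strand), was the member that fell with the drug. It stood at 56 and 55.5 CPM in Ctrl, 54.9 and 56.9 in IFN200 and 63.1 and 55.5 in IFN2000. With the drug its levels were 45.7 and 43.9 CPM (Oxali), 45.6 and 41.8 CPM (Combo200) and 43.2 and 45.4 CPM (Combo2000). The 6 libraries with Oxali lay below the 6 without it and overlapped one another. The log2 change was -0.31 (SE 0.06, edgeR adjusted p = 0.000143) with Oxali alone and, with IFNγ added, -0.35 (SE 0.06) at 200 pg and -0.33 (SE 0.06) at 2000 pg, and it remained negative under the other scalings. IFNγ was not called for Irf3 with or without the drug, and the interactions were -0.04 (SE 0.08) and -0.11 (SE 0.08). A single library decided this at 2000 pg without the drug. With IFN2000 replicate 3 left out, Irf3 was called higher in IFN2000 than in Ctrl (0.20, edgeR adjusted p = 0.0177) and in IFN200 (0.19, 0.0155), the library that remained being the one with reads of T cell genes described below for Irf8. The RNA level does not tell of the phosphorylated, active protein. Bcl2l12, on the opposite strand, shares 88 exon bases with Irf3 and changed by 0.02 (SE 0.15) in Combo2000 against Ctrl, which was not called (edgeR adjusted p = 0.888).

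Irf7, the interferon-inducible factor that amplifies type I interferon (chromosome 7, 141262706 to 141266481, minus strand), was low in Ctrl and rose with the drug. It stood at 0.835 and 0.709 CPM in Ctrl, 0.955 and 1.41 in IFN200 and 1.41 and 1.12 in IFN2000. With the drug its levels were 3.73 and 3.82 CPM (Oxali), 6.02 and 6.34 CPM (Combo200) and 9.74 and 10.7 CPM (Combo2000). All libraries with Oxali lay above all without it, and the IFN200 and IFN2000 libraries overlapped. The rise was 4.88-fold in Oxali (log2 2.29, SE 0.24, edgeR adjusted p = 5.08e-08), 7.99-fold in Combo200 and 13.2-fold in Combo2000 (log2 3.72, SE 0.19, edgeR adjusted p = 1.19e-12). The log2 change with IFNγ alone was 0.62 (SE 0.30) at 200 pg and 0.72 (SE 0.30) at 2000 pg and was not called, although these libraries lay above both Ctrl libraries.

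IFNγ added to Oxali raised Irf7 by 0.71 (SE 0.14, edgeR adjusted p = 0.00748) at 200 pg and by 1.44 (SE 0.13, edgeR adjusted p = 1.52e-07) at 2000 pg. The interaction was 0.10 (SE 0.35) and 0.72 (SE 0.34), and neither was called (edgeR adjusted p = 0.961 and 0.299). A larger response to IFNγ in the presence of the drug was thus not shown for Irf7, although IFNγ was called with the drug and not without it. The added rise at 200 pg was lost without Combo200 replicate 3 or without either Oxali library (edgeR adjusted p = 0.0748 to 0.131), with a replicate block (0.172) and with DESeq2 (adjusted p = 0.307). Phrf1, which shares 45 exon bases with Irf7 on the opposite strand, fell by 0.24 on the log2 scale in Combo2000 (SE 0.04, edgeR adjusted p = 2.3e-05).

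Irf9, the DNA-binding subunit of the type I interferon complex (chromosome 14, 55603571 to 55610030, plus strand), followed the pattern of Irf1 at a lower level. It stood at 8.29 and 8.01 CPM in Ctrl, 9.77 and 11.1 in IFN200 and 16.3 and 17.6 in IFN2000. With the drug its levels were 13.6 and 14.4 CPM (Oxali), 40.6 and 44.1 CPM (Combo200) and 59 and 59.7 CPM (Combo2000). No groups overlapped, and Irf9 alone among the members had all 6 groups apart. The rise was 1.72-fold in Oxali (log2 0.78, SE 0.10, edgeR adjusted p = 7.78e-07), 2.08-fold in IFN2000 (log2 1.06, SE 0.09, edgeR adjusted p = 2.9e-07) and 7.28-fold in Combo2000 (log2 2.86, SE 0.08, edgeR adjusted p = 7.17e-17).

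As for Irf1, the response of Irf9 to IFNγ was larger with the drug at both doses. IFNγ at 200 pg changed it by 0.36 (SE 0.10, not called) without Oxali and by 1.60 (SE 0.07) with it, a difference of 1.24 (SE 0.13, edgeR adjusted p = 1.01e-05). At 2000 pg the changes were 1.06 and 2.08 (SE 0.07), a difference of 1.02 (SE 0.12, edgeR adjusted p = 3.72e-05). On the linear scale the gain in the Combo2000 libraries was 50.9 and 51.6 CPM, whereas the gains in Oxali and IFN2000 summed to 14.7 CPM. Rnf31 lies on the same strand and shares 123 exon bases with Irf9. It rose by 0.96 (SE 0.06, edgeR adjusted p = 2.03e-11) in Combo2000 against Ctrl, from 26.8 to 52.4 CPM, and how the overlap was counted is not stated, so some reads of Irf9 are uncertain.

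**Figure D3:**
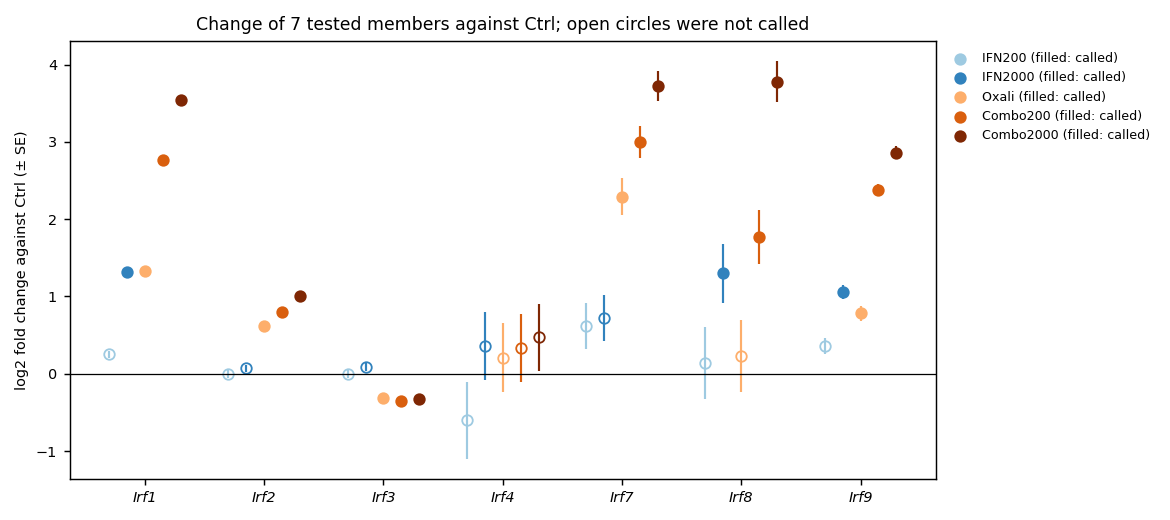
Log2 fold change against Ctrl (vertical axis) of the 7 tested members in the 5 treated groups; bars are SE from the fit of 2 libraries a group, filled circles were called at an edgeR adjusted p under 0.05 and open ones were not. Irf1 and Irf9 were called in IFN2000 and in Oxali, Irf2, Irf3 and Irf7 in Oxali but not with IFNγ alone, and Irf8 in IFN2000 but not in Oxali.

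Irf8, known from myeloid and B cells (chromosome 8, 120736358 to 120756694, plus strand), was near the limit of counting except in the high-dose combination. Without the drug it had 12 and 9 counts (Ctrl), 15 and 13 (IFN200) and 43 and 20 (IFN2000), and with it 18 and 10 (Oxali), 47 and 46 (Combo200) and 202 and 184 (Combo2000). As levels these were 0.668 and 0.456 CPM (Ctrl), 0.651 and 0.574 CPM (IFN200), 1.84 and 0.893 CPM (IFN2000), 0.829 and 0.477 CPM (Oxali), 2.05 and 1.78 CPM (Combo200) and 7.48 and 7.93 CPM (Combo2000). The libraries of Ctrl, IFN200 and Oxali overlapped, as did those of IFN2000 and Combo200, and Combo2000 stood alone. The change with Oxali was 0.23 (SE 0.46, edgeR adjusted p = 0.667). The rise was 2.45-fold in IFN2000 (log2 1.30, SE 0.38, edgeR adjusted p = 0.0251) and 3.4-fold in Combo200 (log2 1.77, SE 0.35, edgeR adjusted p = 0.000193), and reached 13.7-fold in Combo2000.

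Of the 7 tested members, Irf8 had the largest steps from Oxali and from Combo200 to Combo2000. Combo2000 exceeded Oxali 11.6-fold (log2 3.54, SE 0.25, edgeR adjusted p = 2.93e-09), IFN2000 5.58-fold (log2 2.48, SE 0.21, edgeR adjusted p = 2.51e-09) and Combo200 4.03-fold (log2 2.01, SE 0.20, edgeR adjusted p = 8.61e-07). The interaction of Irf8 at 2000 pg was called with an edgeR adjusted p close to the threshold, and the call was lost (0.0501 to 0.306) without any of the Ctrl, IFN200, Combo200 or Combo2000 libraries or without Oxali replicate 2. That at 200 pg was 1.39 (SE 0.58) and not called (edgeR adjusted p = 0.418). In the Combo2000 libraries, the gain over Ctrl was 6.92 and 7.37 CPM, against 0.897 CPM for the sum of the gains in Oxali and IFN2000.

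The call of Irf8 with IFNγ alone rested on single libraries, and DESeq2 gave no adjusted p for it. Without IFN2000 replicate 2 the log2 change was 0.68 (edgeR adjusted p = 0.426), without Ctrl replicate 1 it was 1.59 (0.0903), and without Ctrl replicate 2 it was 1.05 (0.195). In each of these cases Irf8 was called in the combinations and in neither single treatment, so its place between interferon alone and both agents together depended on 1 library. The step from Oxali to Combo200, 1.53 (SE 0.33, edgeR adjusted p = 0.0131), was lost without either Combo200 library or Oxali replicate 2 (0.0857 to 0.343), and that from IFN200 to IFN2000 without either IFN200 library or IFN2000 replicate 2 (0.106 to 0.479) or with DESeq2 (0.0573). Without IFN2000 replicate 2 the interaction at 2000 pg was 2.86 (edgeR adjusted p = 0.00353).

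IFN2000 replicate 2 also held reads of T cell genes. The summed level of 10 T cell markers was 8.69 CPM there, with 9 of the 10 above 0, and 0.58 CPM in its partner, replicate 3; in the other 10 libraries it lay between 0.167 and 1.16 CPM. Ptprc had 64 counts, Cd4 33, Trac 33 and Cd8a 0, and Ifng, the gene of IFNγ, had 117 counts against 0 in IFN2000 replicate 3. Combo200 replicate 3 held 9 counts of Ifng, with a marker sum of 1.16 CPM. The part of these reads in the Irf8 values was not tested. In the Combo2000 libraries, where Irf8 was highest, the T cell markers summed to 0.517 to 0.778 CPM, the B cell markers to 0 to 0.037 CPM and the macrophage and dendritic cell markers to 1.93 to 1.98 CPM. The last sum was 0.53 to 1.27 CPM in the 6 libraries without Oxali and 1.53 to 2.18 CPM in the 6 with it. Of these 9 markers, Adgre1, Itgam, Itgax and Flt3 were at 0 in all 12 libraries, whereas Csf1r had 0 counts in every library without Oxali and 8 to 19 in those with it, and Lyz2 had 0 to 1 against 3 to 11. Of the 2 markers that were tested, Csf1r was called higher in Oxali and in both combinations against Ctrl. Csf1r passed the filter only through libraries with Oxali and had to be higher there, so these calls are descriptions. The part of the macrophage and dendritic cell markers in the Irf8 value was not tested either. In a bulk sample, fewer cells of a type and less RNA per cell cannot be told apart.

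Irf4, known from lymphocytes (chromosome 13, 30749226 to 30766976, plus strand), was not called in any of the 13 contrasts. It stood at 2.34 and 2.58 CPM in Ctrl, 1.52 and 1.72 in IFN200 and 5.4 and 0.848 in IFN2000. With the drug its levels were 3.32 and 2.39 CPM (Oxali), 3.14 and 3.05 CPM (Combo200) and 3.33 and 3.49 CPM (Combo2000). The 2 IFN2000 libraries held the highest and the lowest value of all 12, and the highest was the library with the T cell reads, whose part in it was not tested. The spread of this pair entered the error of every Irf4 contrast, with SE values of 0.39 to 0.65.

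The description of Irf4 changed with either library of this pair. Without IFN2000 replicate 2, the log2 change in IFN2000 was -1.53 (edgeR adjusted p = 0.00498), Combo2000 exceeded Ctrl by 0.46 (0.0344) and IFN2000 by 1.99 (2.86e-06), and Combo200 exceeded IFN200 by 0.92 (0.000324). The interaction at 2000 pg was then 1.78 (edgeR adjusted p = 0.0111). Without replicate 3, the change in IFN2000 was 1.14 (edgeR adjusted p = 0.000265), Combo2000 lay below IFN2000 (-0.68, 0.00194) and the interaction was -0.89 (0.0416), while Combo2000 again exceeded Ctrl by 0.46 (0.0314) and Combo200 exceeded IFN200 by 0.92 (0.000265). IFN2000 then exceeded IFN200 by 1.75 (edgeR adjusted p = 2.8e-06). Each of these fits left IFN2000 with 1 library, which was assumed to vary like the other groups. The IFN200 libraries of Irf4, in which the T cell markers summed to 0.221 to 0.26 CPM, lay below both Ctrl libraries (log2 -0.60, SE 0.50, not called).

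**Figure D4:**
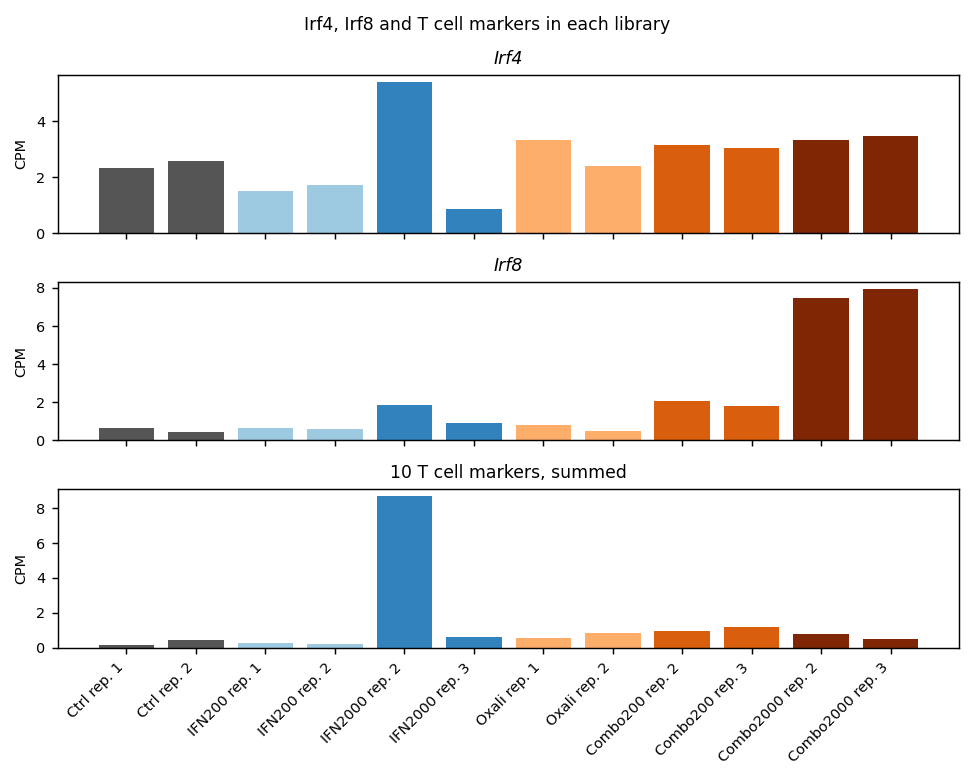
Levels in CPM of Irf4 (top), Irf8 (middle) and the sum of 10 T cell markers (bottom) in each of the 12 libraries, with axes from 0 and colours for the 6 groups. IFN2000 replicate 2 held the highest Irf4 level (5.4 CPM) and the highest marker sum (8.69 CPM), whereas Irf8 peaked in Combo2000 at 7.48 and 7.93 CPM, where the marker sum was 0.517 to 0.778 CPM.

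Irf5, known from myeloid and B cells (chromosome 6, 29526625 to 29541871, plus strand), was at or near 0. Without the drug it had 1 and 0 counts (Ctrl), 0 and 0 (IFN200) and 0 and 1 (IFN2000), and with it 3 and 1 (Oxali), 1 and 1 (Combo200) and 3 and 5 (Combo2000). Only 1 library had more than 3 counts, so no change was detectable at this depth. Tnpo3, on the opposite strand, shares 411 exon bases with Irf5 and stood at 283 CPM in Ctrl and 168 CPM in Combo2000.

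The effect of IFNγ with and without the drug was set side by side for all tested members. At 200 pg the difference was called for Irf1 and Irf9, 2 of 7 members against 0.698% of all genes (0.562% higher). At 2000 pg it was called for Irf1, Irf2, Irf8 and Irf9, 4 of 7 members against 2.72% of all genes (2.12% higher). All 6 of these differences were toward a larger change with Oxali present. The criterion of an additive response, a call of the combination against Ctrl, Oxali and IFNγ alone, was met by Irf1, Irf2, Irf7, Irf8 and Irf9 at both doses, against 1.65% of all genes at 200 pg and 3.73% at 2000 pg. In these 5 genes both combination libraries also lay above the linear sum of the single effects at both doses. So did those of Irf4 at 200 pg and of Irf5, which was near 0, at 2000 pg. This was not tested, and the share over all genes was not computed. Rises that only multiply also exceed such a sum. At 200 pg the criterion for Irf2, Irf7 and Irf8 rested on calls against Oxali that single libraries decided, as given above, and the call of Irf2 was also lost under 7 of 8 other processing choices.

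**Figure D5:**
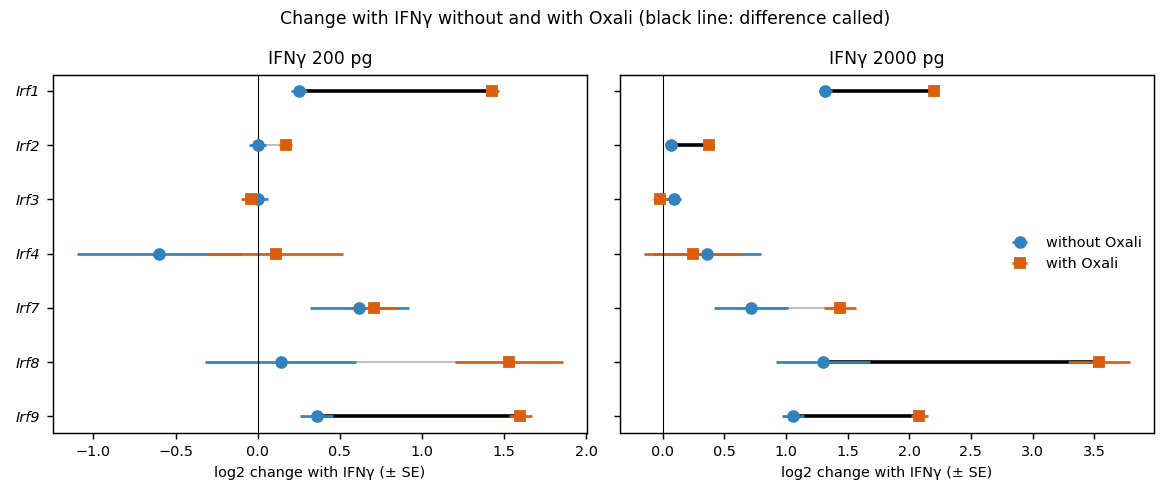
Log2 change with IFNγ (horizontal axis, bars are SE) in cells without Oxali (IFNγ against Ctrl, circles) and with Oxali (combination against Oxali, squares) for the 7 tested members, at 200 pg (left) and 2000 pg (right). Black lines join pairs whose difference was called: 1.17 for Irf1 and 1.24 for Irf9 at 200 pg, and 0.88 for Irf1, 0.31 for Irf2, 2.25 for Irf8 and 1.02 for Irf9 at 2000 pg.

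The dose of IFNγ mattered for most of these genes. Raising it from 200 to 2000 pg without the drug was called for Irf1 (log2 1.07, SE 0.05), Irf8 (1.16, SE 0.36) and Irf9 (0.70, SE 0.09), 3 of 7 members against 22.3% of all genes (11.3% higher). With the drug, the same step was called for Irf1 (0.78, SE 0.04), Irf2 (0.21, SE 0.04), Irf7 (0.72, SE 0.12), Irf8 (2.01) and Irf9 (0.49, SE 0.06), 5 of 7 members against 1.37% of all genes (1.21% higher). Irf8 thus had the steepest step between the combinations and Irf2 the shallowest among those called, which was lost without either Combo200 library or Combo2000 replicate 3 (edgeR adjusted p = 0.118 to 0.27). With DESeq2 this step was not called for Irf2 (adjusted p = 0.295) or Irf7 (0.73, adjusted p = 0.211). Adding Oxali to IFNγ was called for 6 of 7 members at both doses, all but Irf4, with a background of 69.9% at the lower dose (36.5% higher and 33.5% lower) and 72.3% at the higher dose (38.5% and 33.8%).

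The genes whose pattern over the 10 treated libraries lay nearest to each member were found by the root mean square (RMS) difference of their log2 ratios to Ctrl. For Irf1 these were Slc2a6 (0.24), Ifitm3 (0.30) and Uba7 (0.30), and for Irf9 they were Psmb10 (0.19), Ifitm3 (0.22) and Tapbp (0.28). Psmb10 encodes an immunoproteasome subunit and Tapbp a chaperone of peptide loading. Tnfsf10, the death ligand TRAIL, lay nearest to Irf7 (0.20), followed by Casp12 (0.30) and Apol10b (0.31). Only genes above a floor on mean log2 CPM were searched, and low counts can add to the distances. For Irf8 the nearest of these were C1ra at 0.50, Tgtp1 at 0.58 and Parp14 at 0.60. Genes as low as Irf8 could be left out, so these distances do not show that it lacked a close neighbour. The nearest genes to the flatter patterns of Irf2 and Irf3 were Nub1 at 0.06 and Tubgcp4 at 0.03. These distances describe 10 libraries that share the Ctrl mean.

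The partners with which IRFs bind DNA were read beside them. Of 11 listed partners and binding proteins, 9 were tested; 4 rose in Oxali, 2 in IFN2000 and 8 in Combo2000, and none fell in these comparisons. Of all tested genes, 34.8%, 8.39% and 35.7% were called higher in these comparisons, so the count in Oxali lay close to the background. The median log2 change of the list was 0.75, 0.10 and 1.79 (0.75, 0.09 and 1.79 with the gene at 0 in Ctrl placed at its bound). Spib and Batf2 passed the filter only through libraries with Oxali, Batf2 only through the combinations, and had to be higher there. Their calls and their part in the medians are therefore descriptions. Stat2, a partner of Irf9, stood at 24.4 ± 0.181 CPM in Ctrl, 41.3 ± 0.496 in Oxali, 26.1 ± 1.79 in IFN2000 and 84.4 ± 4.12 in Combo2000 (SD, n = 2). Its interaction at 2000 pg was 0.93 (SE 0.09, edgeR adjusted p = 2.07e-06). As for Irf9, its log2 change with IFNγ at 2000 pg was larger when Oxali was present.

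Spib and Batf2 encode partners of Irf4 and Irf8 in immune cells. Spib was at 0 in both Ctrl libraries, at 1.57 and 2.48 CPM in Oxali and at 3.71 and 4.11 CPM in Combo2000, and these group means were at least 12.7-fold and at least 24.5-fold higher than a Ctrl mean with 3 counts in each library. Batf2 had 2 and 0 counts in Ctrl, lay between 0 and 0.0461 CPM in Oxali and between 0.0857 and 0.134 CPM in IFN2000, and reached 5.09 to 5.45 CPM in Combo2000. Like Irf8, Batf2 stood apart in the high-dose combination.

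Upstream of the factors, 7 interferon receptor subunits and kinases were tested. In Oxali 5 rose and 1 fell, in IFN2000 1 rose and 1 fell, and in Combo2000 5 rose and 1 fell, with median changes of 0.34, -0.08 and 0.68, against 67.6%, 16.9% and 69.2% of all genes called either way. Ifngr2, a subunit of the IFNγ receptor, stood at 1.12 ± 0.299 CPM in Ctrl and 4.66 ± 0.315 in Oxali (SD, n = 2; log2 2.06, SE 0.23, edgeR adjusted p = 1.48e-07), and Ifngr1 changed by 0.74 (SE 0.05, edgeR adjusted p = 2.34e-10). Of 14 sensors and kinases upstream of Irf3, Irf5 and Irf7, 13 were tested, and 5 rose and 2 fell in Oxali, 1 rose and 1 fell in IFN2000 and 5 rose and 2 fell in Combo2000. Against 67.6%, 16.9% and 69.2% of all genes called either way, the calls among the sensors and kinases were not more frequent in Oxali, IFN2000 or Combo2000. The median log2 change of that list was 0.06 in Oxali, 0.07 in IFN2000 and 0.10 in Combo2000, and the highest change was that of Ddx58, the RNA sensor RIG-I, from 10.3 ± 0.0071 CPM in Ctrl to 46.9 ± 0.654 in Oxali and 90 ± 1.31 in Combo2000. None of the 10 listed interferon genes passed the filter, and Ifnb1 and the Ifna genes read here were at 0 in every library.

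Genes known as targets of Irf1 and of the Irf9 complex were read last. Of 12 listed Irf1 targets, 9 were tested; 6 rose in Oxali, 3 in IFN200, 5 in IFN2000 and 9 in Combo2000, and none fell. Of 15 listed targets of the Irf9 complex, 11 were tested; 6 rose in Oxali, 5 rose and 1 fell in IFN2000, and 11 rose in Combo2000. The share of all genes called higher was 34.8% in Oxali, 8.39% in IFN2000 and 35.7% in Combo2000, and 0.114% were called either way in IFN200. The median log2 change in Combo2000 was 6.16 for the Irf1 targets (5.79 with the gene at 0 in Ctrl at its bound) and 4.61 for the Irf9 complex targets (4.54). Genes that passed the filter only through treated libraries, such as Vcam1 through those with Oxali, had to be higher there. The counts and medians of both lists are therefore descriptions.

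Among the Irf1 targets, Gbp2, a guanylate-binding protein, stood at 0.957 ± 0.0631 CPM in Ctrl, 3.11 ± 0.353 in Oxali, 30.7 ± 0.0946 in IFN2000 and 289 ± 4.97 in Combo2000 (SD, n = 2). Its interaction at 2000 pg was 1.53 (SE 0.30, edgeR adjusted p = 0.00827), and that of Cd274, which encodes PD-L1, was 1.92 (SE 0.30, edgeR adjusted p = 0.000828). Vcam1, an adhesion molecule, was higher than in Ctrl in Oxali but not in IFN2000. It passed the filter only through libraries with Oxali, so its rise there is a description. It stood at 0.137 ± 0.122 CPM in Ctrl, 0.0866 ± 0.0593 in IFN2000 and 3.99 ± 0.298 in Oxali. With IFNγ added to Oxali it stood at 4.73 ± 0.346 CPM (Combo200) and 7.58 ± 0.119 CPM (Combo2000). Nos2, the inducible nitric oxide synthase, was at 0 in both Ctrl libraries, and its Combo2000 mean of 1.89 CPM was at least 11.9-fold higher than a Ctrl mean with 3 counts in each library. Among the Irf9 complex targets, Usp18, which removes Isg15, followed the drug as Irf7 did, with 0.261 ± 0.133 CPM in Ctrl, 0.718 ± 0.195 in IFN2000, 2.91 ± 0.0724 in Oxali and 7.48 ± 0.0948 in Combo2000. Bst2, the virus tether tetherin, differed from it, with 66.7 ± 1.74 CPM in Ctrl, 62.8 ± 0.956 in Oxali and 185 ± 1.98 in Combo2000, and its interaction at 2000 pg was 0.93 (SE 0.07, edgeR adjusted p = 5.81e-08).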

How the data were processed

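RNA-seq libraries were made from poly(A) RNA of Myc-CaP cells with a stranded kit. The authors deposited raw counts per gene symbol, 1 column for each of 12 libraries, with no normalisation. The study's methods name STAR, build GRCm38, GENCODE gene models and featureCounts, and the submitters' processing notes list STAR 2.7.3a and RSEM 1.3.0. The strand setting of the counting is not given in the sources used here.

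All 55216 rows were read, of which 28300 were at 0 in every library. Counts were filtered with filterByExpr (minimum count 10, minimum total 15), scaled by TMM and fitted with edgeR 4.0.16 in R 4.3.3 in 1 model of 12 libraries with a mean per group, which is the shared spread used because each group held 2 libraries; the study's DESeq2 was kept as an alternative (1.42.0). P-values were adjusted by Benjamini-Hochberg over 13177 genes in each of 13 contrasts. CPM are counts over the TMM-scaled library total. SE is the log2 fold change over the root of F. The interaction is (Combo minus Oxali) minus (IFNγ minus Ctrl) in log2 units. With 2 libraries against 2, an exact permutation test of 1 gene cannot go below 0.05. The limit of 3 counts covers counting error only, since reads are not independent molecules. The scripts were tested on simulated data.

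Exon lengths and overlaps came from a GENCODE annotation of GRCm38, and promoters from RefSeq GRCm38.p6, in which all 8 members were found. Named genes were the 8 members, the 2 genes with the largest absolute change among called genes of each list, values of some of these in other groups, and the 3 nearest genes of each member called in Combo2000. Tnpo3, Phrf1, Rnf31, Gm17334 and Bcl2l12 were named after the data were seen, for their overlaps. Some genes of these lists are not reported here. The members and gene lists were chosen with earlier results of these data known. Markers of prostate epithelium, T cells, B cells, macrophages and dendritic cells, fibroblasts and endothelium, and heart muscle were summed per library. Fibroblast and endothelium markers summed to 10 to 17.4 CPM in the libraries without Oxali and 21.1 to 25.7 CPM in those with it. Nearly all of this was Pdgfra, with 221 to 371 counts without Oxali and 483 to 632 with it. No other marker of this list exceeded 16 counts. Heart muscle markers summed to 0.835 to 1.27 CPM without Oxali, except 9.68 CPM in IFN200 replicate 1. With Oxali they summed to 3.53 to 6.26 CPM, and both tested heart markers of 8 were called higher there against Ctrl. Of all genes, 34.8% were called higher in Oxali, 35.6% in Combo200 and 35.7% in Combo2000. Myh7, a tested heart marker, had 0 counts in both Ctrl libraries and 7 to 15 with Oxali. It could not pass the filter without libraries with Oxali, so its calls are descriptions. Libraries of a group were not copies of each other (chi-square per degree of freedom 1.71 to 9.15).

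Alternatives were DESeq2, other scalings, a length and GC correction (mgcv 1.9.3), other filters, fits of only the groups compared, a replicate block and leaving out each library.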

Additional observations from a re-analysis of the deposited data

Results flagged for a closer look

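The change with IFNγ differed between cells with and without Oxali by edgeR's interaction test (Benjamini-Hochberg adjusted p under 0.05). The difference on the log2 scale was 1.17 for Irf1 and 1.24 for Irf9 at 200 pg. At 2000 pg it was 0.88 for Irf1, 0.31 for Irf2, 2.25 for Irf8 and 1.02 for Irf9. All were toward a larger change with the drug, and those of Irf1 and Irf9 were called at both doses without any 1 library, whereas those of Irf2 and Irf8 were not.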

How the results depend on the processing

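The number of tested members called moved by over 1.5 times in few cases. IFN200 against Ctrl had 1 (Irf1) in place of 0 with the length and GC correction and with no filter on low counts. With DESeq2 there were 3 in Combo200 against Oxali (5 in edgeR), 3 in Combo2000 against Combo200 (5) and 2 in the interaction at 2000 pg (4), and 4 members kept their class of response, the other 3 having no DESeq2 adjusted p in at least 1 comparison. Leaving out 1 library at a time gave 0 to 1 members in IFN200 against Ctrl, 2 to 5 in IFN2000 against Ctrl, 2 to 5 in Combo200 against Oxali, 2 to 5 in IFN2000 against IFN200 and 2 to 5 in the interaction at 2000 pg. Irf4 was called in Combo2000 against Ctrl (0.46 in both) and in Combo200 against IFN200 (0.93 in both) with no filter (edgeR adjusted p = 0.0347 and 1.29e-05) and with only the groups compared (0.0301 and 0.000296), and in IFN2000 against IFN200 with no filter (0.96, 3.96e-05), and the Irf8 interaction at 2000 pg was lost with only the groups compared (edgeR adjusted p = 0.0558).

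Correlations of same-numbered libraries' deviations from their group means lay between -0.0456 and 0.045. With 2 libraries a group the deviations mirror each other, so these values cannot exclude that replicate numbers pair the libraries. With a replicate block, 3 members were called in Combo200 against Oxali, where Irf2 (0.16, edgeR adjusted p = 0.377) and Irf7 (0.61, 0.172) were lost, and Irf4 was called in Combo200 against IFN200 (1.30, 0.0313). Small values changed sign with the block, Irf3 to 0.01 in Combo200 and 0.02 in Combo2000 against Oxali and to 0.00 in the interaction at 200 pg, and Irf7 there to -0.01. The block changed no other call of a member.

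Other values changed sign. Irf2 in IFN200 against Ctrl was 0.00 with the scalings of DESeq2 and upper quartiles, and Irf4 in Combo2000 against IFN2000 was -0.08 with the length and GC correction. Leaving out 1 library gave ranges that held both signs for Irf8 in Oxali (-0.22 to 0.56) and IFN200 (-0.12 to 0.42) against Ctrl, for Irf4 in Oxali (-0.05 to 0.42) and IFN2000 (-1.53 to 1.14) against Ctrl, Combo200 against Oxali (-0.10 to 0.38), Combo2000 against IFN2000 (-0.68 to 1.99), IFN2000 against IFN200 (-0.93 to 1.75) and the interaction at 2000 pg (-0.89 to 1.78). So did Irf2 in IFN200 against Ctrl (-0.01 to 0.01), Irf7 in IFN2000 against IFN200 (-0.15 to 0.41) and the interaction at 200 pg (-0.17 to 0.39), and Irf3 in IFN200 (-0.02 to 0.03) and IFN2000 (0.00 to 0.20) against Ctrl, IFN2000 against IFN200 (-0.01 to 0.19), Combo200 (-0.10 to 0.02) and Combo2000 (-0.05 to 0.02) against Oxali, Combo2000 against Combo200 (-0.04 to 0.08) and the interaction at 200 pg (-0.10 to 0.02). Within these ranges, values were called for Irf4 (all but Oxali against Ctrl and Combo200 against Oxali) and for Irf3 in IFN2000 against Ctrl and against IFN200, always with 1 IFN2000 library left out; the report gives their adjusted p. The cause was not tested.

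Over all genes, the IFN200 count of 15 became 102 without a filter, 28 with the length and GC correction and 48 with only the groups compared, and the IFN2000 count of 2221 became 1392 with DESeq2 and 1071 with the block. IFN2000 against IFN200 went from 2943 to 1829 with DESeq2 and 1588 with the block. Combo200 against Oxali went from 241 to 372 without a filter and 142 with the block, and Combo2000 against Oxali from 574 to 334 with DESeq2, 331 with the block and 954 with the correction. Combo2000 against Combo200 went from 181 to 106 with DESeq2 and 288 with the correction. The interaction at 200 pg went from 92 to 262 without a filter, 172 with only the groups compared and 48 with the block, and that at 2000 pg from 359 to 188 with DESeq2, 638 with the correction and 785 without a filter. Leaving out 1 library gave 646 to 2964 genes in IFN2000 against Ctrl and 102 to 1035 in the interaction at 2000 pg. The length and GC correction moved the median of all genes by -0.126 in Oxali and -0.160 in Combo2000 against Ctrl, where Irf1 became 1.21 and 3.35 and Irf3 -0.50 and -0.56. Depth limits Irf5 and, outside the high-dose combination, Irf8.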
